A study of Homo sapiens with 4 samples.

Results

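The mRNAs of 46 human DNA repair and checkpoint genes were followed in a native RNA immunoprecipitation of ORC1, a subunit of the origin recognition complex. The genes were listed by name in 9 groups by pathway, with earlier results of these data known. They were matched by Ensembl identifier to 46 of the 63677 genes of the count table. All 46 passed the filter on low counts and were among the 14645 genes tested. All 4 libraries came from nuclei of HCT116, a human colorectal carcinoma line that lacks normal mismatch repair, transfected for 48 h with the plasmid pcDNA3.1-ORC1-3xFLAG. In 2 of them RNA was precipitated from the nuclear lysate with an anti-FLAG antibody (IP, replicates 1 and 2), and the other two held RNA of the lysates before precipitation (Input, replicates 1 and 2). Every library thus carried overexpressed, tagged ORC1, from asynchronous cells, and the series had no control antibody and no untransfected cells. Only Input served as reference. The labels number 2 RIP replicates and do not say that these came from separate cultures, so p-values measure the spread between these libraries.

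DNA damage is sensed by the kinases ATM, ATR and DNA-PK, which phosphorylate mediators and effectors that halt the cell cycle and start repair. Double-strand breaks are resected and copied from the sister chromatid by homologous recombination, or joined directly after the Ku heterodimer binds the ends. The Fanconi anemia proteins undo crosslinks between DNA strands, mismatch repair corrects errors of the polymerases, and nucleotide excision repair cuts out bulky lesions. RecQ helicases unwind structures that form at stalled forks. Many of these proteins are large, and their mRNAs have long coding sequences. ORC1 itself marks replication origins, where the DNA helicase that opens the forks is loaded.

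The libraries held 27483148 (IP replicate 1), 20280445 (IP replicate 2), 14677002 (Input replicate 1) and 9213877 (Input replicate 2) counts. ORC1, which the plasmid encodes, ranged from 1108 CPM (counts scaled to a common total) in IP replicate 1 to 18551 in IP replicate 2, and from 333 to 5063 CPM in the Inputs. Replicate 2 thus held 16.7 times (IP) and 15.2 times (Input) the ORC1 RNA level of replicate 1. The paper describes the plasmid sequence as codon-optimized, and how fully its reads were counted at the ORC1 gene was not tested. The amount of ORC1 protein was not measured in these libraries. The epithelial markers EPCAM, CDH1, KRT8, KRT18 and KRT19 were all expressed, KRT8 at 974 to 2055 CPM. Of the colonic markers CDX2 was present at 8.87 to 11.1 CPM and KRT20 at 0.401 to 1.44 CPM, VIL1 had 0 to 5 reads and CDX1 none. The blood, endothelial and fibroblast markers PTPRC, CD3E, PECAM1 and COL3A1 had at most 1 read, whereas the fibroblast marker COL1A1 was at 7.90 to 26.7 CPM.

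Nearly all repair mRNAs lay on the IP side of Input, with BLM, RAD50 and the DNA-PK subunits PRKDC and XRCC5 the highest and 4 of the 7 shortest coding sequences below Input. A positive log2 fold change was found for 41 of the 46 members and for 7362 of all 14645 genes tested. edgeR called 22 members enriched (47.8%), against 10.5% of all genes tested and 11.9% of the 12534 protein-coding genes tested. A gene was called when its adjusted p was below 0.05 and its log2 fold change past 1. No member was called depleted, against 8.3% of all genes, but 4 members had an unadjusted p below 0.05 with a negative fold change. The share of all genes at that unadjusted p was not taken. DESeq2, limma voom and the fit with a replicate block each called 2 members depleted, FANCF and RAD51C. Of all 14645 genes these fits called 1346, 1140 and 1957 depleted. With the block, which takes the libraries of 1 number as a pair, the edgeR adjusted p was below 0.05 for 37 members with a positive and 4 with a negative fold change. Of these, 23 and 2 also passed the fold threshold, as did 1960 and 1957 of all 14645 genes. The share of all genes past the adjusted p threshold alone was not taken. The median log2 fold change was 1.01 over the members, 0.01 over all genes and 0.08 over protein-coding genes. These calls were relative to other RNAs of the same library, since no spike-in is described. With scaling by library size alone, which moved the median of all genes to -0.59, 4 members were enriched and 4 depleted. Of all 14645 genes, 380 were enriched and 3257 depleted with that scaling. The members' median stayed 0.99 above that of all genes. Upper-quartile scaling gave 17 enriched and 2 depleted members, against 1080 and 1542 of all 14645 genes, with the median of all genes at -0.16.

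The individual libraries showed the same division. Both IP libraries lay above both Inputs for 38 members (33.2% of all genes) and below both for 5 members (31.9% of all genes). FANCG, FANCE and NBN had overlapping groups. The IP/Input ratio, taken within each replicate on TMM-scaled CPM with a pseudocount of 0.5, exceeded 1 (log2) in each replicate for 18 members, against 8.95% of all genes. It was positive in both replicates for 40 members, and for 6286 of all 14645 genes tested. The medians of the 2 replicates were 0.94 and 0.98, beside the difference in ORC1 RNA level given above. Across the 46 members the ratios of the 2 replicates had a Spearman rho of 0.80, given as a description, since genes are not independent replicates. The replicates of a member differed by a median of 0.32. RAD50 differed most, by 1.14, with the higher ratio in replicate 2, and PRKDC next, by 0.71, with the higher ratio in replicate 1.

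**Figure D1:**
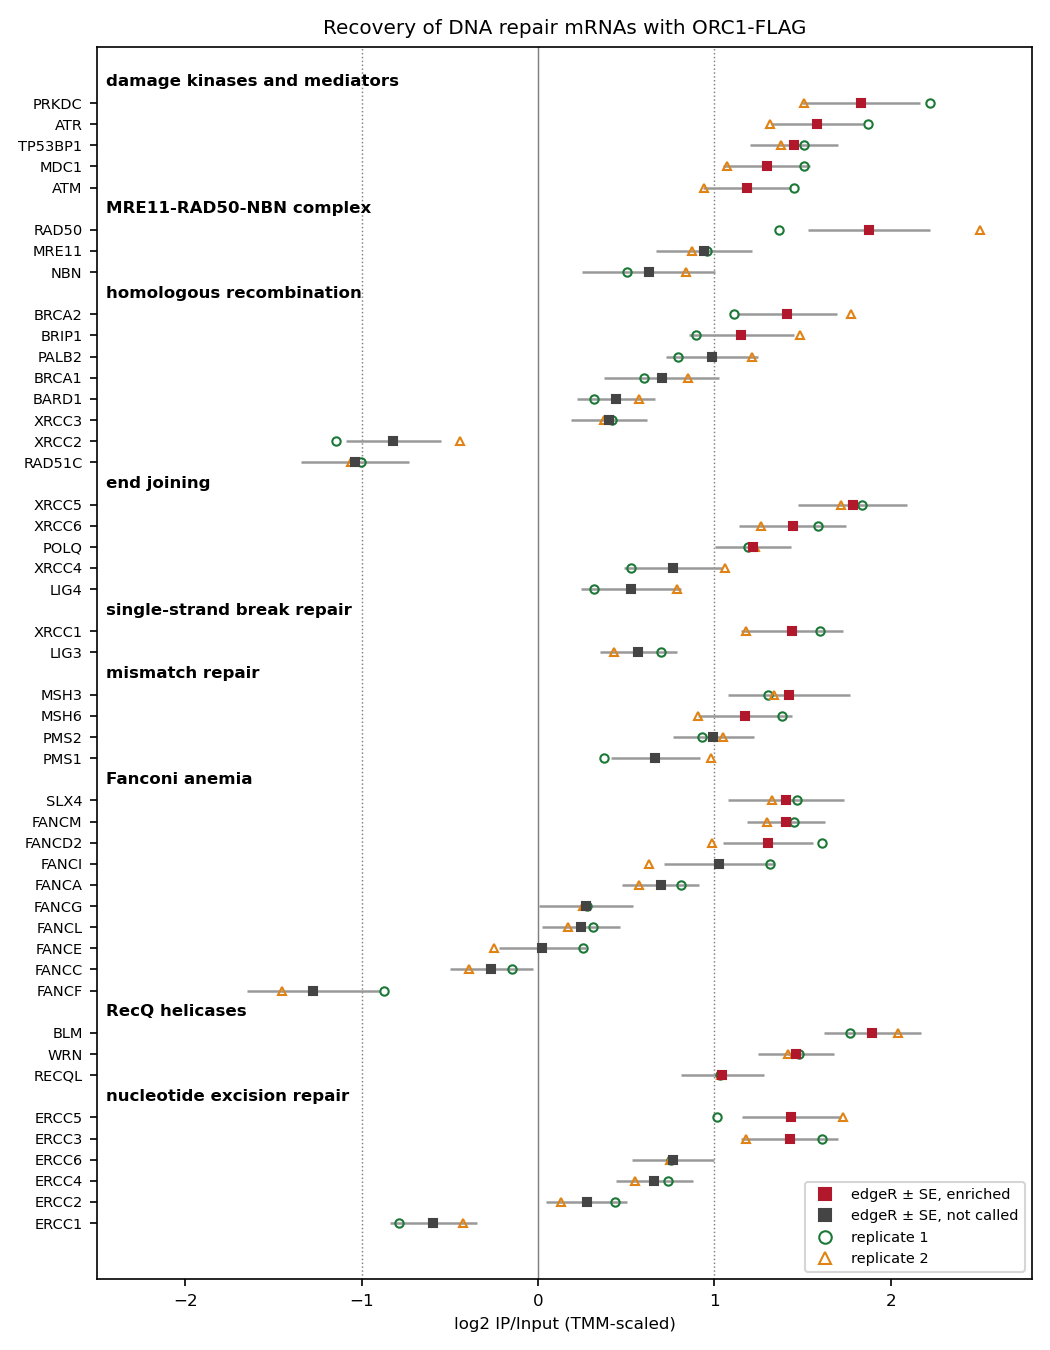
Log2 IP/Input of the 46 members by pathway: squares are edgeR log2 fold changes with their SE, red where called enriched, and open circles and triangles are the ratios of replicates 1 and 2. All 5 damage kinases and mediators and all 3 RecQ helicases are enriched, whereas FANCF, RAD51C, XRCC2, ERCC1 and FANCC lie below 0 in both replicates.

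Member reads made up a larger part of the IP than of the Input before any scaling. They took 1.05% and 0.990% of the counts in IP replicates 1 and 2, and 0.552% and 0.581% in the Inputs. Most of these reads came from the 3 subunits of the DNA-dependent protein kinase: the catalytic subunit PRKDC and the Ku proteins XRCC5 (Ku80) and XRCC6 (Ku70). This trio held 0.722% and 0.675% of all reads in the IPs, compared with 0.308% and 0.347% in the Inputs. The other 43 members together held 0.325% and 0.315% in the IP and 0.244% and 0.234% in the Input. Per kilobase of the canonical transcript the mean Input level was highest for XRCC6 (397 CPM per kb), XRCC5 (264) and PRKDC (68.9), followed by FANCI (27.7). At the other end stood MSH3 (1.05), ERCC5 (1.42), MRE11 (1.78) and FANCF (1.87). Input level per kilobase and log2 fold change had a rho of 0.05 across the members and 0.02 across the 12534 protein-coding genes.

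**Figure D2:**
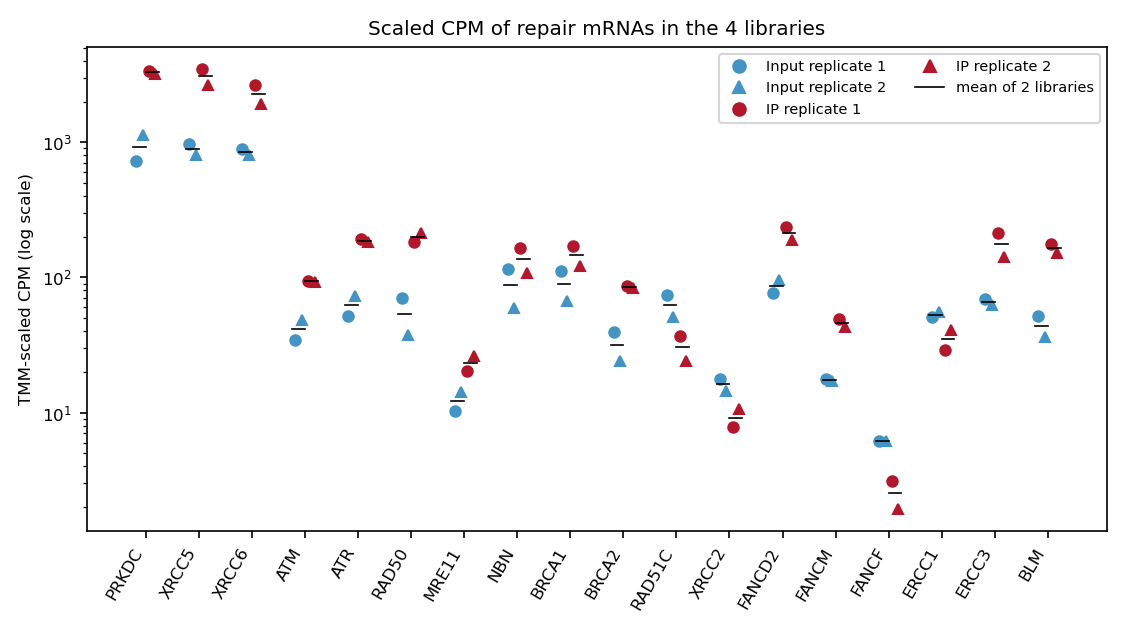
TMM-scaled CPM (log axis) of 18 members in the 4 libraries: blue marks are Input, red marks IP, circles replicate 1, triangles replicate 2, and bars the mean of the 2 libraries of a group. The DNA-PK subunits PRKDC, XRCC5 and XRCC6 lie at 726 CPM or more in every library and higher in both IPs, whereas RAD51C, XRCC2, FANCF and ERCC1 lie lower in both IPs.

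The 5 damage kinases and mediators were all enriched, with a median log2 fold change of 1.45. PRKDC, which phosphorylates end-joining factors, gave 3382 and 3216 CPM in the IPs and 726 and 1129.6 in the Inputs. Both IPs were above both Inputs, and the log2 fold change was 1.83 ± 0.33 (SE, adjusted p = 0.0148 by edgeR). ATR, the kinase of stalled forks, was at 192 and 182 CPM in the IPs and 52.1 and 72.9 in the Inputs, a log2 fold change of 1.58 ± 0.26 (SE, adjusted p = 0.0129 by edgeR). For ATM, the kinase activated by double-strand breaks, the values were 94.8 and 92.9 CPM in the IPs against 34.4 and 48.2 CPM in the Inputs (log2 fold change 1.19 ± 0.25 SE, adjusted p = 0.0200 by edgeR). Its replicate ratios were 1.45 and 0.94. Both mediators were enriched as well. TP53BP1, which protects broken ends from resection, gave 364 and 299.5 CPM in the IPs and 128 and 115 in the Inputs and a log2 fold change of 1.45 ± 0.25 (SE, adjusted p = 0.0133 by edgeR). MDC1, the scaffold that reads the phosphorylated histone H2AX, was at 313 and 264 CPM in the IPs against 109.6 and 125 CPM in the Inputs (log2 fold change 1.30 ± 0.25 SE, adjusted p = 0.0162 by edgeR). Both IPs lay above both Inputs for these 5 genes, as for 33.2% of all genes tested, of any length. Among protein-coding genes of 3615 or more coding bases, which include these 5, the median log2 fold change was 1.07.

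In the MRE11-RAD50-NBN complex, which holds broken ends together and activates ATM, the RAD50 mRNA was enriched and those of the other two subunits were not called. RAD50, the coiled-coil ATPase of the complex, was at 182 and 214 CPM in the IPs and 70.4 and 37.3 in the Inputs. The log2 fold change was 1.88 ± 0.34 (SE, adjusted p = 0.0150 by edgeR), with replicate ratios of 1.36 and 2.51 and the lower Input value in replicate 2. MRE11, the nuclease, gave 20.4 and 26.3 CPM in the IPs against 10.3 and 14.1 CPM in the Inputs. Its log2 fold change of 0.94 ± 0.27 (SE, adjusted p = 0.0473 by edgeR) passed the p threshold and missed the fold threshold. NBN, the adaptor that binds MDC1, had 165 and 107 CPM in the IPs and 116 and 59.5 in the Inputs, and IP replicate 2 fell below Input replicate 1. Within the replicates the ratios were both positive, 0.50 and 0.84. The difference was not called (log2 fold change 0.63 ± 0.38 SE, adjusted p = 0.263 by edgeR). Fitted as pairs, NBN reached 0.67 (adjusted p = 0.00314, edgeR with the replicate block), still under the fold threshold.

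In homologous recombination BRCA2 and BRIP1 were enriched, and RAD51C and XRCC2, which assist strand exchange, were lower in both IPs. BRCA2, a mediator of strand exchange, was at 85.6 and 83.6 CPM in the IPs and 39.3 and 24.1 in the Inputs, a log2 fold change of 1.41 ± 0.28 (SE, adjusted p = 0.0185 by edgeR). BRIP1, a helicase partner of BRCA1, gave 102 and 90.7 CPM in the IPs against 54.3 and 32.1 CPM in the Inputs (log2 fold change 1.15 ± 0.30 SE, adjusted p = 0.0344 by edgeR). PALB2, the bridge between BRCA1 and BRCA2, reached 0.99 ± 0.26 (SE, adjusted p = 0.0363 by edgeR), just under the fold threshold, and was called with a replicate block at 1.01. BRCA1 and its partner BARD1 were not called, at 0.70 ± 0.33 (SE, adjusted p = 0.160 by edgeR) and 0.44 ± 0.22 (SE, adjusted p = 0.187 by edgeR). BRCA1, with 5589 coding bases, was the longest member that was not called. XRCC3, the partner of RAD51C, gave 0.40. XRCC2, with the shortest coding sequence of the members (840 bases), was at 7.78 and 10.6 CPM in the IPs and 17.8 and 14.5 in the Inputs, so the IPs lay below the Inputs. Its log2 fold change was -0.82 ± 0.27 (SE, adjusted p = 0.0671 by edgeR). RAD51C read 36.9 and 24.01 CPM in the IPs against 74.5 and 50.7 CPM in the Inputs. Its replicate ratios were -1.002 and -1.06 and the log2 fold change -1.04 ± 0.31 (SE, adjusted p = 0.0510 by edgeR).

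Among end-joining genes, both Ku mRNAs and POLQ were enriched. XRCC5 (chr2:216107464-216206303, GRCh38, plus strand) was at 3480.0 and 2657 CPM in the IPs and 975 and 808 in the Inputs. XRCC6 (chr22:41621163-41664048, plus strand) was at 2664 and 1914 CPM in the IPs and 886 and 798 in the Inputs. Their log2 fold changes were 1.78 ± 0.31 (SE, adjusted p = 0.0134 by edgeR) and 1.44 ± 0.31 (SE, adjusted p = 0.0200 by edgeR). Each had both IPs above both Inputs, as did 33.2% of all genes tested, of any length. POLQ, the polymerase of microhomology-mediated joining, gave 98.0 and 101 CPM in the IPs against 42.7 and 42.7 CPM in the Inputs (log2 fold change 1.22 ± 0.21 SE, adjusted p = 0.0137 by edgeR). XRCC4 and LIG4 form the ligase complex of the pathway and were not called. XRCC4, the shorter of them, was at 74.1 and 67.7 CPM in the IPs and 51.3 and 32.2 in the Inputs, a log2 fold change of 0.76 ± 0.28 (SE, adjusted p = 0.0894 by edgeR). LIG4 stood at 0.53 ± 0.28 (SE, adjusted p = 0.215 by edgeR). In single-strand break repair the scaffold XRCC1 was enriched, at 77.9 and 48.7 CPM in the IPs and 25.4 and 21.2 in the Inputs (log2 fold change 1.44 ± 0.29 SE, adjusted p = 0.0185 by edgeR). Its ligase partner LIG3 gave 99.3 and 89.997 CPM in the IPs against 60.9 and 66.7 CPM in the Inputs, which was not called (log2 fold change 0.57 ± 0.22 SE, adjusted p = 0.102 by edgeR).

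In mismatch repair, MSH6 and MSH3, which recognise mispaired bases, were enriched and the PMS genes were not called. MSH6, which detects single mismatches, was at 303 and 214 CPM in the IPs and 116 and 114 in the Inputs, a log2 fold change of 1.17 ± 0.27 (SE, adjusted p = 0.0246 by edgeR). MSH3, which detects larger loops, was the least abundant member per kilobase and gave 9.94 and 15.02 CPM in the IPs against 3.72 and 5.65 CPM in the Inputs (log2 fold change 1.42 ± 0.34 SE, adjusted p = 0.0289 by edgeR). All 4 libraries had few reads of it, 207 and 264 in the IPs and 65 and 66 in the Inputs. PMS2, the endonuclease subunit, was at 58.6 and 52.5 CPM in the IPs and 30.6 and 25.2 in the Inputs. Its log2 fold change of 0.99 ± 0.23 (SE, adjusted p = 0.0250 by edgeR) fell just short of the fold threshold. PMS1 gave 0.66 ± 0.25 (SE, adjusted p = 0.0980 by edgeR).

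The 10 Fanconi anemia genes ranged from FANCF, the lowest member, to SLX4 and FANCM. SLX4, the scaffold of structure-specific nucleases, was at 42.0 and 62.7 CPM in the IPs and 14.9 and 24.7 in the Inputs. FANCM, the translocase that brings the core complex to DNA, was at 48.9 and 42.7 CPM in the IPs against 17.6 and 17.0 CPM in the Inputs. Their log2 fold changes were 1.41 ± 0.33 (SE, adjusted p = 0.0267 by edgeR) and 1.40 ± 0.22 (SE, adjusted p = 0.0118 by edgeR). FANCD2 and FANCI form the heterodimer that the core complex ubiquitinates. FANCD2 was enriched, at 234 and 189 CPM in the IPs and 76.4 and 95.4 in the Inputs (log2 fold change 1.30 ± 0.26 SE, adjusted p = 0.0174 by edgeR), whereas FANCI had a fold change of 1.02 ± 0.31 (SE, adjusted p = 0.0544 by edgeR), past the fold threshold only. The difference between the partners was not tested. The core complex genes were not called: FANCA gave 0.69, FANCG 0.27, FANCL 0.25, FANCE 0.02 and FANCC -0.26. FANCF, the core adaptor, had the lowest IP counts of the members, 65 and 34 reads, with 107 and 72 reads in the Inputs. After scaling it was at 3.12 and 1.93 CPM in the IPs and 6.13 and 6.16 in the Inputs, a log2 fold change of -1.27 ± 0.38 (SE, adjusted p = 0.0505 by edgeR). With a replicate block FANCF (-1.28) and RAD51C (-1.04) were both called depleted.

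All 3 RecQ helicase mRNAs were enriched. BLM, which dissolves double Holliday junctions, had the highest fold change of the members. Its values were 178 and 151 CPM in the IPs and 51.8 and 36.3 in the Inputs, and the log2 fold change was 1.90 ± 0.27 (SE, adjusted p = 0.0107 by edgeR). WRN, which also carries an exonuclease, was at 96.1 and 94.3 CPM in the IPs against 34.1 and 35.0 CPM in the Inputs (log2 fold change 1.46 ± 0.21 SE, adjusted p = 0.0108 by edgeR). RECQL, with a coding sequence of 1947 bases the shortest of them, was at 82.6 and 68.6 CPM in the IPs and 40.1 and 33.2 in the Inputs, a log2 fold change of 1.04 ± 0.23 (SE, adjusted p = 0.0238 by edgeR). Each of these genes had both IPs above both Inputs, as did 33.2% of all genes tested, of any length. RECQL lost its call in 4 of the 12 other fits: upper-quartile scaling, library size only, without IP replicate 1 and without Input replicate 2.

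Nucleotide excision repair held 2 enriched members. ERCC3 (XPB), a helicase of the general transcription factor TFIIH, was at 212 and 143 CPM in the IPs and 69.0 and 62.7 in the Inputs, a log2 fold change of 1.43 ± 0.27 (SE, adjusted p = 0.0167 by edgeR). ERCC2 (XPD), the other TFIIH helicase, gave 0.27 ± 0.23 (SE, adjusted p = 0.425 by edgeR) and was not called. ERCC5 (XPG) and ERCC4 (XPF) are the nucleases that cut on either side of the lesion. ERCC5 was at 13.3 and 16.7 CPM in the IPs against 6.30 and 4.71 CPM in the Inputs (log2 fold change 1.44 ± 0.28 SE, adjusted p = 0.0175 by edgeR), and ERCC4 at a log2 fold change of 0.66 ± 0.22 (SE, adjusted p = 0.0693 by edgeR). ERCC1, the partner of ERCC4, was at 29.2 and 40.9 CPM in the IPs and 50.8 and 55.0 in the Inputs and lower in both IPs (log2 fold change -0.59 ± 0.25 SE, adjusted p = 0.125 by edgeR). ERCC6 (CSB), which acts where RNA polymerase has stalled, was at 36.5 and 43.6 CPM in the IPs against 21.4 and 25.8 CPM in the Inputs. This was not called (log2 fold change 0.76 ± 0.23 SE, adjusted p = 0.0546 by edgeR).

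Members with longer coding sequences had higher fold changes. Across the 46 members, the coding length of the canonical transcript and the log2 fold change had a Spearman rho of 0.62 (0.63 and 0.59 with the ratios of replicates 1 and 2), and 0.59 across the 12534 protein-coding genes. The median coding length was 2912 bases in the members and 1433 in protein-coding genes. Of the 7 members under 1500 bases none was enriched, against 3.45% of protein-coding genes of that length, and none was depleted, against 14.8%. Their median log2 fold change was -0.59. By unadjusted p below 0.05, 1 of these 7 was higher (XRCC4) and 4 were lower (FANCF, RAD51C, XRCC2 and ERCC1). The share of protein-coding genes of this length at that unadjusted p was not taken, so these counts have no background. DESeq2 called FANCF and RAD51C depleted, as it did 1346 of all 14645 genes. Of the 16 members between 1500 and 3000 bases 5 were enriched (31.3%, against 13.1%), with a median of 0.66. Of the 23 members over 3000 bases 17 were enriched (73.9%, against 38.9%), with a median of 1.30. All 23 had both IPs above both Inputs, against 33.2% of all genes tested, a share that was not taken at this length. The union of all exons, which adds untranslated regions and minor transcripts, ordered the members less well (rho 0.11), as did the length of the canonical transcript (rho 0.39). GC content of the coding sequence had a rho of -0.27, and -0.13 and -0.41 with the ratios of replicates 1 and 2.

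**Figure D3:**
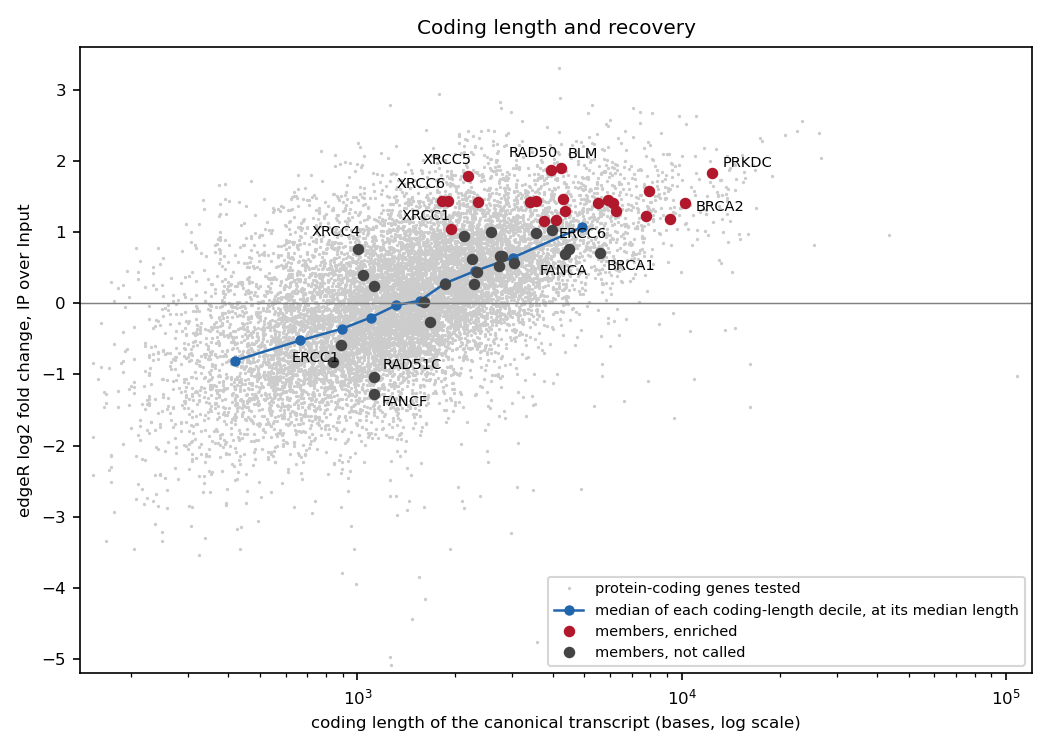
The edgeR log2 fold change against coding length (log axis) for the 46 members (red, enriched; dark grey, not called) and 12534 protein-coding genes (light grey), with the median of each of 10 length classes in blue. The blue line climbs from -0.80 to 1.07, and XRCC5, XRCC6 and XRCC1 lie more than 1 above it while FANCF lies 1.07 below.

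Set against genes of their own coding-length decile, some members stood apart and others did not. The top decile ran from 3615 to 107973 bases, so genes within it differed widely in length. BLM, RAD50, ATM, POLQ, MSH6, BRCA1, FANCA and ERCC6 were all ranked in that decile. The median of the members lay 0.23 above the median of their own length decile, with 31 members above and 15 below. XRCC5 lay 1.33 above it, at percentile 96.9 of the decile. XRCC6 and XRCC1 lay 1.16 above (percentile 95.5 for both), and ERCC3 0.98 above (92.7). BLM and RAD50, among the longer members, were at percentiles 91.7 and 91.1. ATM, with 9168 coding bases, was only at percentile 57.6, POLQ at 59.6 and MSH6 at 56.8. BRCA1 (28.3), FANCA (27.9) and ERCC6 (31.7) had long coding sequences and low percentiles. FANCF was at percentile 5.42 and RAD51C at 9.88. In all, 8 members were above percentile 90 and 2 below percentile 10. These positions are descriptions with no test.

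Coding sequences were also searched for a tandem repeat of 3 GAA units, GAAGAAGAA, which reads as glutamate codons in 1 frame and as lysine codons in another. It was present in 9 of the 46 members (19.6%), against 12.5% of the 12534 protein-coding genes: RAD50, BRCA2, FANCM, SLX4, BLM, WRN, ERCC3, NBN and PMS2. Its complement TTCTTCTTC was in 3 members (6.52%, against 2.58%). With untranslated regions included, 11 members held GAAGAAGAA (23.9%, against 14.8%). RAD50, the second highest member, held 3 separate runs and ERCC3 an unbroken run of 5 units. The sequences below give the coding strand around the run in the members where they show how the repeat differs, 24 bases on either side, with the repeat in capitals (GENCODE v44, GRCh38).
RAD50 run at coding base 2341 (chr5:132603409-132603465, plus strand, 1 exon): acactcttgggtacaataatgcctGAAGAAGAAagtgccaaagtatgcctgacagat
RAD50 run at coding base 3103 (chr5:132616045-132616101, plus strand, 1 exon): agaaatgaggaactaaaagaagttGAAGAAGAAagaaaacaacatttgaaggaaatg
RAD50 run at coding base 3244 (chr5:132618125-132618181, plus strand, 1 exon): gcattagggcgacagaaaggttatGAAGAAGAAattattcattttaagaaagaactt
ERCC3 (chr2:127289346-127289408, minus strand, 1 exon): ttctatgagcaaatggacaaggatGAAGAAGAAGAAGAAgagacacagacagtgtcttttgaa
BLM (chr15:90750057-90751832, plus strand, spliced across an intron): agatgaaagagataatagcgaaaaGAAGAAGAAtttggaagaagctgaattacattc
SLX4 (chr16:3584826-3589012, minus strand, spliced across an intron): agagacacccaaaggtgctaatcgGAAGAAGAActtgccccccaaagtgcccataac
PMS2 (chr7:6003785-6004020, minus strand, spliced across an intron): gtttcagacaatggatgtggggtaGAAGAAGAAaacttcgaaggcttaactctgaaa

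The runs in RAD50, ERCC3 and PMS2 are in the glutamate frame and those in BLM and SLX4 in the lysine frame (AAG codons). Of the 9 members with the repeat 7 were enriched, against 35.2% of protein-coding genes with it, and NBN and PMS2 were not. Of the 37 without it 15 were enriched, against 8.59%. Repeat-bearing members were longer, with a median coding length of 4251 bases against 2748. Among members over 3000 bases, all 6 with the repeat were enriched, against 58.1% of such protein-coding genes, with a median log2 fold change of 1.44. Of the 17 without it 11 were enriched, against 31%, with a median of 1.19. PRKDC, ATR and XRCC5 were among the highest members and held no such run. A match to these letters is a description of the sequence, and no match says only that the run is not in the coding sequence searched.

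Reads of some members could not be assigned with certainty. The library kit keeps strand, but the counting is not stated to use it, so exons shared with a gene on the other strand could add reads: 76.7% of the exonic bases of XRCC3 overlap KLC1, 41.5% of RECQL overlap PYROXD1, 29.1% of LIG3 overlap RFFL, 28.8% of TP53BP1 overlap TUBGCP4, 28.6% of ERCC1 overlap POLR1G and 22.7% of MSH6 overlap FBXO11. These neighbours had log2 fold changes of 1.17 (KLC1), -0.34 (PYROXD1), -1.06 (RFFL), -0.29 (TUBGCP4), 0.54 (POLR1G) and 1.04 (FBXO11). On the same strand 3641 exonic bases of ERCC5 (33%) belong to the readthrough gene BIVM-ERCC5, listed at 0 reads in all 4 libraries. The union of ERCC5 exons holds 11043 bases and its canonical transcript 3888. How reads lying in both genes were counted was not tested, so the ERCC5 level and call are uncertain. PMS2 has 15 annotated pseudogenes and XRCC6 has 5, and their near-identical copies make these values uncertain. Another gene of the same strand in GENCODE v44 shares 76.9% of the exonic bases of RAD50. It is not among the 63677 genes of the count table, so no reads were counted to it. The part of shared reads in the results was not tested.

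Alternative settings changed some of the calls. All 22 enriched members kept their call in DESeq2, limma voom, the replicate block, both other count filters and the fit without Input replicate 1. Over the 12 other fits BRIP1 and RECQL each lost the call in 4, MSH3 and MSH6 in 3, and BRCA2 and SLX4 in 2. A further 12 members lost it only with library size alone. Without Input replicate 2, the shallowest library, the members' median was 0.76 and that of all genes tested -0.037. Without Input replicate 1 these medians were 1.18 and -0.054. XRCC5, PRKDC, RAD50 and BLM were the only members called enriched with scaling by library size alone.

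**Figure D4:**
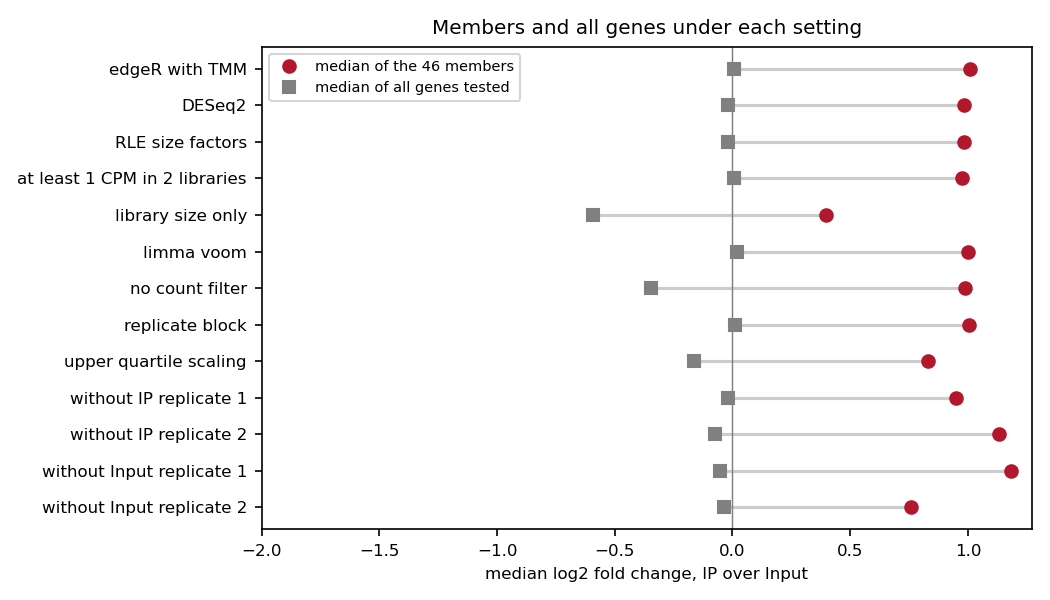
Median log2 fold change of the 46 members (red circles) and of all genes tested (grey squares) under each setting, joined by a line. The members lie 0.80 to 1.33 above all genes in each setting. The 1.33 is without a count filter, where 31990 genes are tested with a median of -0.34 and the members' median is 0.99. Library size alone moves both to lower values, -0.59 for all genes and 0.40 for the members.

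A second list of 132 genes, from several of these pathways and from checkpoint signalling, base excision repair and translesion synthesis, entered the same fit, and 129 of them passed the count filter. edgeR called 21 of these enriched (16.3%, against 10.5% of all genes) and 7 depleted (5.43%, against 8.3%), with a median log2 fold change of 0.40 and a median coding length of 1629 bases. Enriched genes included RFC1 (2.13), the large subunit of the clamp loader, PARP2 (2.07), the ligase LIG1 (1.75) and the lesion sensor XPC (1.62). Depleted genes included the small subunits RPA3 (-1.40) and GTF2H5 (-1.73). The checkpoint kinases CHEK1 (-0.56) and CHEK2 (-0.07) were not called.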

How the data were processed

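Native RIP-seq of ORC1-FLAG was analysed in 2 IP and 2 Input libraries of HCT116 nuclei (TruSeq Stranded Total RNA kit). The values deposited by the authors were raw read counts per gene. Per the labels and the study's methods, featureCounts counted reads on an Ensembl annotation, after trimming (Trimmomatic) and alignment to hg19 (STAR). The annotation release, the strand setting of the counting and the treatment of multiply aligned reads are not given in the sources used here. Every sample column was mapped, leaving 0 columns unused. Totals ranged from 9213877 to 27483148 counts. Reads carry no molecular identifiers, so duplicates count as separate reads.

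Testing used edgeR 4.0.16 under R 4.3.3, with its robust quasi-likelihood test with TMM scaling, filterByExpr and group as the only term, over all 14645 genes kept. Adjusted p-values (Benjamini-Hochberg) below 0.05 with log2 fold changes above 1 or below -1 made a call. TMM factors were 0.758 and 0.868 for the IPs and 1.19 and 1.28 for the Inputs, and the biological coefficient of variation was 0.261. The script was tested on simulated counts. Pearson r of log2 CPM was 0.982 for the IPs and 0.966 for the Inputs. Lengths, coordinates and sequences came from GENCODE v44 (GRCh38), another build than that of the counts, joined by Ensembl identifier. Coding sequences of at least 150 bases were used. The labels give the IP and the Input of each number as the same RIP replicate. Deviations of same-numbered libraries from their group means correlated (r = 0.647). The libraries were therefore taken as paired by number in the replicate ratios and in the replicate block. The main fit did not use this pairing, so its adjusted p-values and calls do not take it into account. Alternatives were 3 other scalings, 2 other filters, DESeq2 1.42.0, limma voom (limma 3.58.1), a replicate block, each library left out, 2 other pseudocounts and another length or sequence.

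The members, gene lists, tests and alternatives were chosen with earlier results of these data known. Values in every library were given for each member called and for the longest and shortest member of each pathway. Some genes of these pathways are not reported here.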

Additional observations from a re-analysis of the deposited data

How the results depend on the processing

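The 22 enriched members became 23 in DESeq2, limma voom and the replicate block, 21 with RLE size factors, 17 with upper-quartile scaling and 4 with library size only. Of all 14645 genes, 1542 were enriched in the main fit, 1610 in DESeq2, 1428 with RLE, 1080 with upper-quartile scaling and 380 with library size only. Depleted genes in the same fits numbered 1215, 1346, 1263, 1542 and 3257. Leaving out 1 library left a lone library in its group, assumed to vary like the other group. The median of all genes tested was then -0.074 to -0.020. The 0 depleted members became 2 in DESeq2, limma voom, upper-quartile scaling, both other filters and the replicate block, 1 with RLE and 4 with library size only (0 to 3 without 1 library: 3 without Input replicate 2, 1 without IP replicate 1). The replicate block turned PALB2 to enriched and FANCF and RAD51C to depleted, and changed no other member's call. The members' median, 1.01, was 0.98 at the filter of 1 CPM, 0.83 with upper-quartile scaling, 0.40 with library size only and 0.76 to 1.18 without 1 library. The rank correlation with coding length was 0.53 to 0.67 without 1 library and 0.11 with exonic length. Members with a ratio above 1 in both replicates numbered 18 (pseudocount 0.1), 17 (pseudocount 1) and 2 (library size only). Of the other pathway genes 4 were enriched and 25 depleted with library size only. Without 1 library 15 to 34 were enriched (34 without IP replicate 2) and 5 to 15 depleted (15 without Input replicate 2). Fold changes turned negative with library size only for BARD1 (-0.15), XRCC3 (-0.20), LIG4 (-0.068), LIG3 (-0.038), FANCE (-0.59), FANCG (-0.34), FANCL (-0.36) and ERCC2 (-0.33). FANCE was also at -0.010 at the filter of 1 CPM, -0.16 with upper-quartile scaling and -0.19 to 0.29 without 1 library, and FANCG at -0.079 to 0.54. The cause of these shifts was not tested. BLM, PRKDC, RAD50 and XRCC5 kept their enriched call in all 12 other fits.

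With 2 libraries a group, values rest on 1 pair of precipitates. Low Input counts limit FANCF, MSH3 and ERCC5, with 55 to 110 Input reads. Input was the only reference, so RNA bound to beads was not measured apart from RNA bound to ORC1.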

Other observations

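The 129 further repair and checkpoint genes tested were listed in 8 groups. Shares called are read against 10.5% of all genes enriched and 8.3% depleted, and no difference from these was tested. In translesion synthesis 4 of 11 (36.4%) were enriched: SHPRH (1.45) and HLTF (1.40), ubiquitin ligases of the clamp PCNA, the primase-polymerase PRIMPOL (1.31) and REV3L (1.28), the catalytic subunit of polymerase zeta. In base excision and single-strand break repair 4 of 19 (21.1%) were enriched, with PARP2 (2.07), LIG1 (1.75), PARP1 (1.32) and the glycosylase MBD4 (1.11). PARP1 was the most abundant of these, at 1177 and 1017 CPM in the IPs and 461 and 417 in the Inputs. In mismatch repair, RFC1 (2.13), the large subunit of the clamp loader, was enriched. Among checkpoint genes 4 of 25 (16%), a share near that of all genes, were enriched: RIF1 (1.52), CLSPN (1.498), TOPBP1 (1.30) and UIMC1 (1.03). Homologous recombination gave the same share, 4 of 25, led by SMC6 (1.68) and the nuclease EXO1 (1.40). Of the 9 further end-joining genes 0 were enriched and 0 depleted. Of the 13 further Fanconi anemia genes 0 were enriched and 2 depleted (15.4%), UBE2W and CENPX.

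Excision repair held 3 enriched and 3 depleted genes of 21 (14.3% each). Within TFIIH, MNAT1 was enriched (1.47) with a coding sequence of 927 bases, at 111 and 87.3 CPM in the IPs and 40.7 and 30.8 in the Inputs, whereas GTF2H5 was depleted (-1.73), at 5.57 and 4.38 against 18.3 and 14.7. RPA3, the smallest subunit of replication protein A, was depleted (-1.40) and RPA1, the largest, was at 0.56 and not called. The depleted genes were UBE2W (-2.40), ABRAXAS1 (-1.85), GTF2H5, CENPX (-1.55), RHNO1 (-1.41), RPA3 and ERCC8 (-1.27).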
